A study of Mus musculus with 3 samples.

Results

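The glucocorticoid receptor gene Nr3c1 and 5 of its target genes, Tsc22d3, Fkbp5, Per1, Klf9 and Ddit4, were followed in sorted natural killer (NK) cells from the lung and blood of mice. The 6 genes were taken by symbol from the 25906 genes of the count files. Live NK1.1+NKp46+ cells came from female wild-type mice, aged 9 weeks, that were naive or had received 100000 PyMT mammary tumor cells into a vein 6 h or 14 days before. Each condition was 1 droplet library that held lung and blood cells carrying different hashtags, so 6 groups of library and tissue were compared. Cells of several mice were pooled in a library with no label of the mouse, and the time of day of sampling is not given in the sources used here. Lungs were perfused and digested with enzymes, whereas blood was not digested, so tissue and preparation cannot be told apart.

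Glucocorticoids such as corticosterone cross the cell membrane and bind a receptor held in the cytoplasm by heat shock proteins. The bound receptor enters the nucleus and binds DNA as a dimer or through other transcription factors. Among its best known targets in lymphocytes are Tsc22d3, which encodes the anti-inflammatory protein GILZ, and Fkbp5, a co-chaperone that lowers the affinity of the receptor for its ligand. Per1 is a component of the circadian clock that also responds rapidly to cAMP and calcium signals. Klf9 encodes a transcription factor of the Krüppel-like family, and Ddit4 encodes REDD1, an inhibitor of the growth kinase complex mTORC1 that is also induced by hypoxia and other stresses.

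The groups held between 2069 and 4680 cells and between 16936897 and 35922737 UMIs, which are counts of distinct RNA molecules, with a median of 5909.5 to 7524 UMIs per cell. All 7 NK markers were detected in every group, among them Ncr1 at 665 to 1533 CPM, which are counts scaled to a common total of 1000000 per group, and Eomes at 191 to 291 CPM. Summed markers of other cell types reached 18.2 to 44.0 CPM for T cells, 15.4 to 94.2 CPM for myeloid cells and 49.6 to 84.9 CPM for endothelial cells, and ILC1 markers, of innate lymphoid cells that pass the same sort, summed to 25.9 to 70.3 CPM, whereas B cell and epithelial markers stayed at or below 1.95 CPM. The endothelial sum was almost all Pecam1, at 49.4 CPM in naive lung and 82.5 CPM in lung at 14 days. Cdh5, Cldn5 and Kdr stayed at or below 1.17 CPM. In the T cell sum, Cd4 and Cd8a stayed at or below 0.354 CPM. The libraries shared 6 to 16 cell barcodes per pair. Ribosomal genes took 13.4% to 15.6% of counts in the naive and 6 h groups but 23.0% in lung and 19.1% in blood at 14 days. With 1 library per condition there were no replicates of a time, so no test between times was made, and intervals are exact 95% intervals for counting error only. In such sums, fewer cells with a transcript and less RNA per cell cannot be told apart.

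Nr3c1 lies on chromosome 18 from 39410545 to 39519421 of GRCm38, on the minus strand. Its level was 375 CPM in lung and 296 CPM in blood of naive mice, 303 CPM in lung and 226 CPM in blood at 6 h, and 172 CPM in lung and 177 CPM in blood at 14 days. The receptor transcript was thus highest in naive lung and lowest in both tissues at 14 days. In that order of levels, 6 h lung and naive blood did not differ beyond counting error, nor did lung and blood at 14 days. The naive library had more Nr3c1 in lung than in blood, with a log2 ratio of 0.34 (95% interval 0.30 to 0.38), and at 6 h the ratio was 0.42 (95% interval 0.38 to 0.47).

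Tsc22d3 lies on chromosome X from 140539528 to 140600659, on the minus strand. Lung cells held 171, 173 and 179 CPM in the naive, 6 h and 14-day libraries. Blood cells held 68.7, 78.2 and 110 CPM in the same order. Every lung group was above every blood group, and the 3 lung values lay within 0.07 log2 units of each other. In blood the level was highest at 14 days.

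Fkbp5, on chromosome 17 from 28399094 to 28517527 on the minus strand, had the opposite order between tissues. It was at 93.1, 94.5 and 129 CPM in lung and at 115, 125 and 146 CPM in blood. Within each library blood was the higher tissue, and both tissues had their highest level at 14 days.

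Per1, on chromosome 11 from 69095217 to 69109960 on the plus strand, was at 33.4, 33.7 and 49.2 CPM in lung and at 12.1, 9.15 and 11.0 CPM in blood. Klf9, on chromosome 19 from 23141226 to 23168134 on the plus strand, was at 39.9, 34.2 and 43.9 CPM in lung and at 17.7, 16.0 and 19.3 CPM in blood. For both genes all lung groups lay above all blood groups. With the blood groups ranked by level, neighbours in rank did not differ beyond counting error. The highest and lowest blood groups did differ beyond it for both genes, naive and 6 h for Per1 and 14 days and 6 h for Klf9. Ddit4, on chromosome 10 from 59949669 to 59951834 on the minus strand, was at 28.6, 34.7 and 46.5 CPM in lung and at 29.0, 36.1 and 55.6 CPM in blood. The Ddit4 levels were ordered by time, not by tissue, and lung and blood did not differ beyond counting error in the naive and 6 h libraries.

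**Figure D1:**
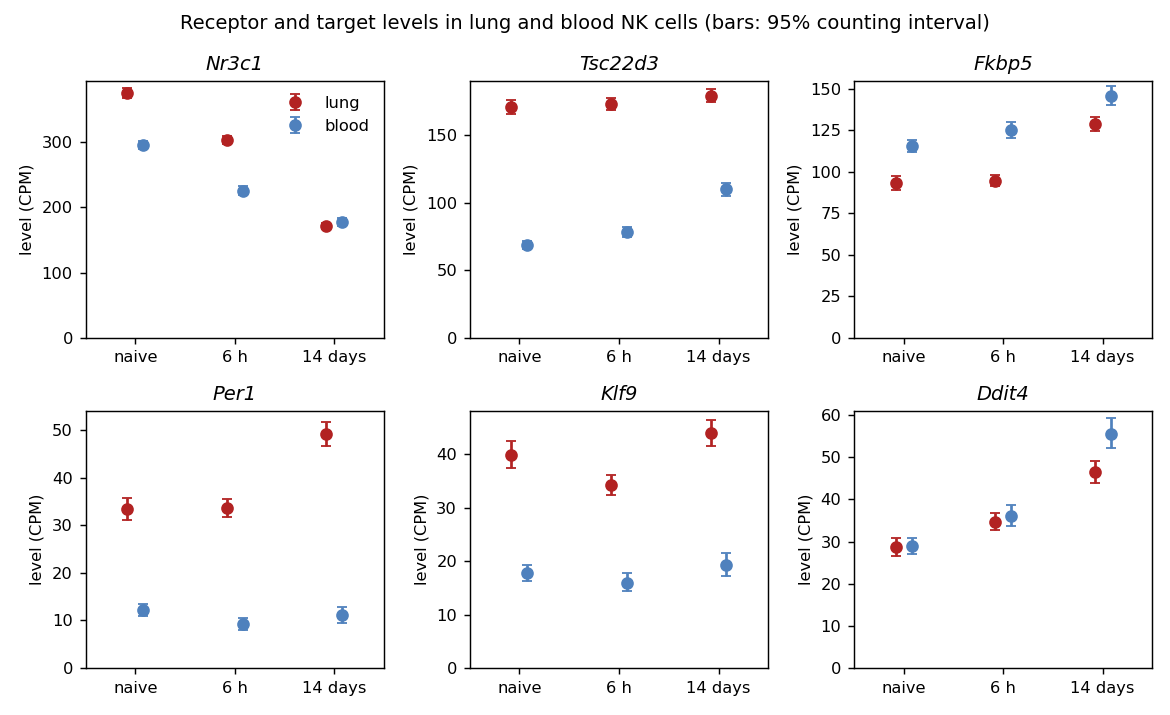
Level of each gene in CPM (y axis, from 0) at each time (x axis), in lung cells (red) and blood cells (blue), with exact 95% counting intervals as bars. Tsc22d3, Per1 and Klf9 were higher in lung at every time, whereas Nr3c1 was lowest at 172 CPM in lung and 177 CPM in blood at 14 days.

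RefSeq promoter windows of GRCm38.p6, 250 bases before to 50 bases after a start site, were found for 5 of the 6 genes, with 8 windows in all. Those that held a searched motif are printed for the 3 genes higher in lung, since these genes shared that pattern. One further Tsc22d3 window with a match, chrX:140548522-140548821, is left out for length. Capitals mark the glucocorticoid receptor half-site TGTTCT in Tsc22d3, the half-site TGACG of the cAMP response element in Per1 and Klf9, and the E-box CACGTG, bound by clock factors, in the first Per1 window. The match in the Tsc22d3 window left out was TGACG, so each of the 3 genes held this half-site in some window. Genes with more windows have more room for a match, and the share of all genes with such a match was not computed. Each line runs 5′ to 3′ on the strand of the gene.
Tsc22d3, chrX:140600473-140600772, minus strand: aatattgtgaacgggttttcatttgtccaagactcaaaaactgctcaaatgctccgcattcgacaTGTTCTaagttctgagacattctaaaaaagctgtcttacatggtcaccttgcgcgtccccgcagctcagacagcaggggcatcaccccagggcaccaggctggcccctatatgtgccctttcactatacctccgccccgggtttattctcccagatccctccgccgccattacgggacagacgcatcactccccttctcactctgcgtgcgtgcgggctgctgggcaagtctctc
Per1, chr11:69098699-69098998, plus strand: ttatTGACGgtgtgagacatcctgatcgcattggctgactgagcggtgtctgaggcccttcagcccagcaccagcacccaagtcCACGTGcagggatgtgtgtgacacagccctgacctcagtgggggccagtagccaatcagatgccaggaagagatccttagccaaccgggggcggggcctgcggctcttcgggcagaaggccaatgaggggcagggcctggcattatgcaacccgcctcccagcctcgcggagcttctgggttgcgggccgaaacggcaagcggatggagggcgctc
Per1, chr11:69099902-69100201, plus strand: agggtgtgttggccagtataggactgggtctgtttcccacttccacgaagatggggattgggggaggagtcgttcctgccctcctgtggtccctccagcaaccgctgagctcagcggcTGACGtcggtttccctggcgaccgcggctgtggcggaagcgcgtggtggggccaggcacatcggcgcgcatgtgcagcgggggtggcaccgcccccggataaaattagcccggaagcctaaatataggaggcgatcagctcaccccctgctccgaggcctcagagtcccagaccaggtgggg
Klf9, chr19:23140976-23141275, plus strand: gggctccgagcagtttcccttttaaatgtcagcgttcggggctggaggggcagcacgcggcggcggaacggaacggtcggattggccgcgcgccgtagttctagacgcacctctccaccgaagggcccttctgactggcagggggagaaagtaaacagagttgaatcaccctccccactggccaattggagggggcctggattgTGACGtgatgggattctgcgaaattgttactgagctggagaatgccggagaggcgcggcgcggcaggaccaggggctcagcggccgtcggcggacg

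Both strands of every window were searched. The full glucocorticoid response element, which is GNACA and TGTNC with 3 bases between them, was in 0 of the 8 windows and in 0.475% of all 32851 mouse windows. TGTTCT was in 1 of the 8 windows and in 19.0% of all windows. TGACG, which is part of the full cAMP response element TGACGTCA, was in 4 of the 8 windows and in 20.8% of all, and the full element was in 0 of the 8 and in 1.79% of all. CACGTG was in the first Per1 window and in the Fkbp5 window, and in 7.15% of all windows. A match describes letters in the window and does not show that a factor bound there.

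The comparison of lung with blood within a library asked whether NK cells in the lung differ from circulating cells, and both tissues there shared 1 library. A gene was tested where either group reached 10 CPM and was called when the groups differed by 1.5-fold or more. The 6 genes and the lists used below were chosen with earlier results of these data known. In naive mice 3 of the 6 genes were higher in lung and 0 were lower, where 6.50% of 8212 genes were called higher and 3.95% lower. The same 3 genes, Tsc22d3, Per1 and Klf9, were higher in lung at 6 h, where 6.11% of all genes were higher and 3.40% lower. They were also higher at 14 days, where 5.75% were higher and 3.96% lower. The median log2 ratio of all genes was -0.09, -0.10 and -0.11 in the 3 libraries, so ratios near those values equal the typical gene.

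Tsc22d3 was 2.48-fold higher in naive lung than in naive blood, a log2 ratio of 1.31 (95% interval 1.24 to 1.39). Its ratio was 1.14 (95% interval 1.07 to 1.22) at 6 h and 0.71 (95% interval 0.63 to 0.78) at 14 days. The smaller ratio at 14 days went with the higher blood level, since the lung level barely moved. Per1 had log2 ratios of 1.46 (95% interval 1.28 to 1.64), 1.88 (95% interval 1.66 to 2.10) and 2.16 (95% interval 1.93 to 2.38) in the naive, 6 h and 14-day libraries. Klf9 varied least among the 3, with 1.17 (95% interval 1.01 to 1.33), 1.10 (95% interval 0.92 to 1.27) and 1.19 (95% interval 1.01 to 1.37). The classical target Fkbp5 did not share this pattern, with log2 ratios of -0.31, -0.40 and -0.18 and intervals below 0 in each library. Ddit4 had -0.02, -0.06 and -0.26, and only the interval at 14 days lay below 0.

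Lung and blood sums of a library were also taken as pairs in edgeR's quasi-likelihood test with the library as a block, a test chosen after the values were seen. It takes 1 tissue difference for all 3 conditions, leaves 2 residual degrees of freedom and measures the spread between conditions, not between mice. Tsc22d3, Per1 and Klf9, each higher in lung in 3 of 3 libraries, passed an adjusted p of 0.05 over 8424 genes, of which 14.1% were called higher and 9.07% lower in edgeR. The log2 ratio was 1.15 for Tsc22d3 (edgeR adjusted p = 0.00483), 1.91 for Per1 (adjusted p = 0.00328) and 1.24 for Klf9 (adjusted p = 0.000999). Nr3c1, higher in lung in 2 of 3 libraries, was at 0.33 and Fkbp5, lower in 3 of 3, at -0.21, and edgeR gave adjusted p of 0.0660 and 0.0821. Ddit4 was at -0.02 with an edgeR adjusted p of 0.819.

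**Figure D2:**
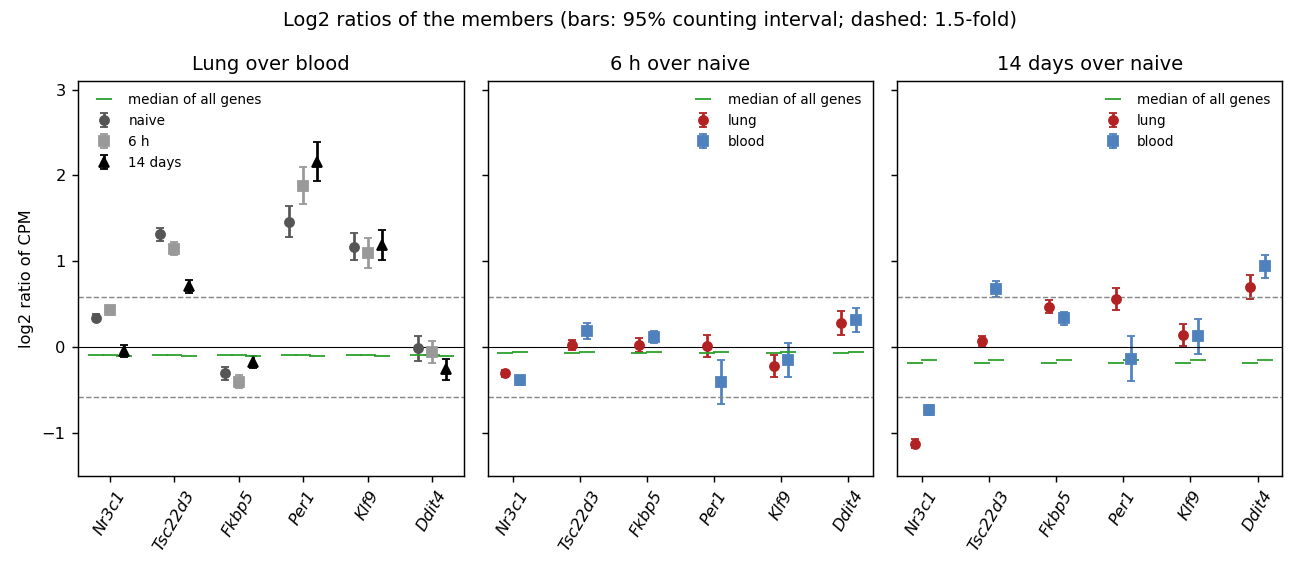
Log2 ratios of CPM (y axis) for the 6 genes (x axis) between lung and blood, between 6 h and naive, and between 14 days and naive, with exact 95% counting intervals, the median of all genes as green ticks and 1.5-fold as dashed lines. Tsc22d3, Per1 and Klf9 lie above the fold in all 3 lung to blood comparisons, and Nr3c1 lies below it in both tissues at 14 days.

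Free RNA, judged from barcodes with at most 100 counts and from markers of other cell types, was limited to 15.1% of counts in naive lung and 3.42% in naive blood, to 4.93% and 4.46% at 6 h, and to 3.29% and 4.19% at 14 days. At the limit of each tissue it could add at most 1.26 to 5.56 CPM of Per1, 6.70 to 29.6 CPM of Tsc22d3 and 0.554 to 2.45 CPM of Klf9. These amounts are below the level of each gene in each group. With free RNA subtracted at these limits, the naive log2 ratios were 1.37 for Tsc22d3, 1.54 for Per1 and 1.31 for Klf9. Without cells holding a UMI of a T cell, B cell, myeloid, endothelial or epithelial marker, the naive log2 ratios were 1.30 for Tsc22d3, 1.37 for Per1 and 1.06 for Klf9. That left 2702 lung and 2942 blood cells in naive mice.

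Counts of cells gave the same order. After each cell was thinned to 3000 UMIs, Tsc22d3 was found in 37.8%, 38.1% and 38.4% of lung cells and in 18.4%, 20.1% and 26.4% of blood cells of the naive, 6 h and 14-day libraries. Per1 was found in 8.75%, 9.38% and 13.7% of lung cells and in 3.77%, 2.71% and 2.96% of blood cells. Klf9 was found in 10.1%, 9.18% and 11.4% of lung cells and in 5.27%, 4.73% and 5.43% of blood cells. For these 3 genes, then, lung had more positive cells at every time. Without thinning the naive shares were 58.9% in lung and 33.0% in blood for Tsc22d3, 17.7% and 7.83% for Per1, and 18.7% and 9.57% for Klf9. No cell type that lacks these genes was in the sort, so the share that free RNA alone gives was not measured.

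NK cells mature from a Cd27 stage to an Itgam (CD11b) stage, and lung and blood differ in these stages. Cells were therefore grouped by thinned UMIs of Cd27 and Itgam into 4 gates, cells with only Cd27, both, only Itgam or neither. Tsc22d3 was higher in lung than in blood in 4 of 4 gates in every library, with log2 ratios of 0.84 to 1.40 in naive, 0.80 to 1.23 at 6 h and 0.20 to 1.53 at 14 days. The interval of 1 of these 12 ratios included 0. Per1 and Klf9 were also higher in lung in 4 of 4 gates in every library, with intervals above 0 in 10 and in 7 of the 12 ratios. Fkbp5 was lower in lung in 4 of 4 gates in naive and 6 h mice and in 3 of 4 at 14 days, with intervals below 0 in 2, 3 and 1 of these gates.

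**Figure D3:**
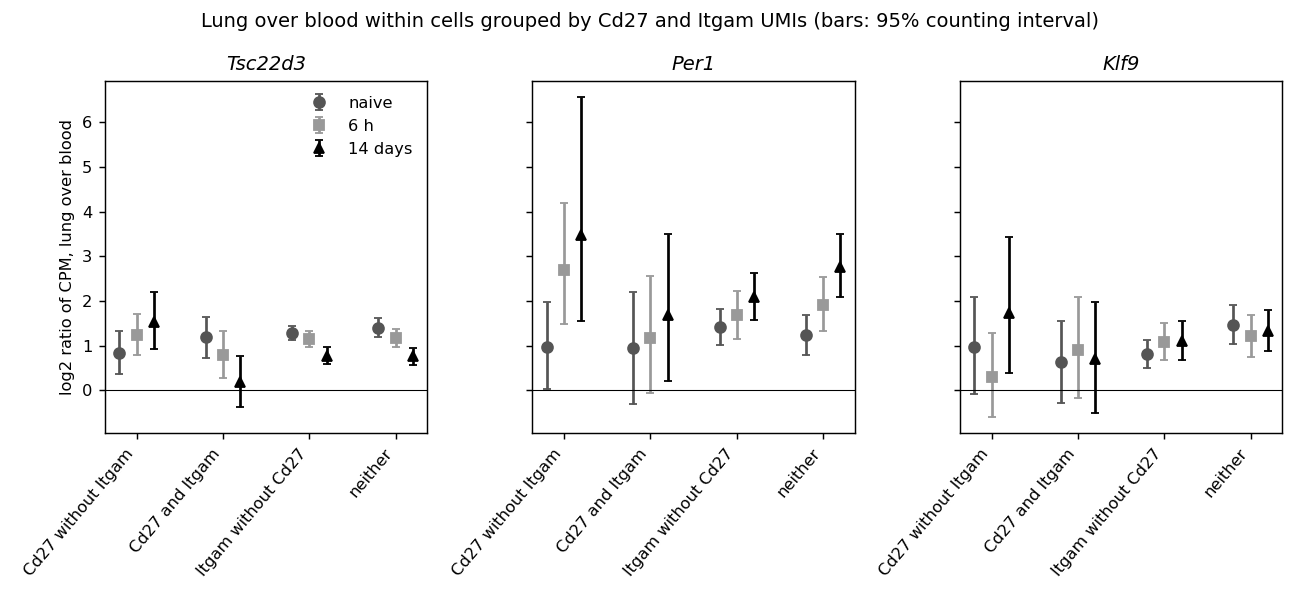
Log2 ratio of lung over blood (y axis) for Tsc22d3, Per1 and Klf9 in cells grouped by UMIs of Cd27 and Itgam after thinning (x axis), with exact 95% counting intervals, for the naive (dark grey circles), 6 h (light grey squares) and 14-day (black triangles) libraries. All points lie above 0, and the wide bars belong to the gates with few counts.

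Among the gates of 1 group, Tsc22d3 was lower in cells with only Cd27 than in cells with only Itgam. The log2 ratio was -0.52 (95% interval -0.85 to -0.22) in naive lung, -0.41 (95% interval -0.66 to -0.17) in lung at 14 days and -1.16 (95% interval -1.81 to -0.58) in blood at 14 days, the last from 25 UMIs in the Cd27 gate. The intervals of the other 3 groups included 0, whereas with all UMIs the ratio lay between -0.84 and -0.25 in the 6 groups, with every interval below 0. Tsc22d3 was not alone in this. After thinning, Fkbp5 was at -0.45 (95% interval -0.90 to -0.03) in naive lung and -0.43 (95% interval -0.74 to -0.12) in lung at 14 days. In 6 h blood Nr3c1 was at -0.38 (95% interval -0.65 to -0.11), and in 14-day lung at -0.35 (95% interval -0.62 to -0.09). In 6 h lung Ddit4 was at -0.78 (95% interval -1.41 to -0.21), and in 14-day blood at -1.11 (95% interval -2.05 to -0.30). The last came from 13 UMIs in the Cd27 gate. In the other groups the intervals of these genes and of Fkbp5 included 0. Per1 went the other way in lung at 6 h, at 0.85 (95% interval 0.41 to 1.27). Cells with a UMI of Itga1 or Pmepa1, which encode a collagen-binding integrin and a TGF-β target, held less Tsc22d3 than the other cells of the 14-day lung, with a log2 ratio of -0.24 (95% interval -0.38 to -0.10). Nr3c1 was also lower in them, at -0.15 (95% interval -0.29 to -0.008). That interval leaves out spread between cells, and the variance of Nr3c1 over thinned cells of this lung was 1.60 times its mean. The other members were below 0 as well, with intervals that included 0. With all UMIs the intervals of Fkbp5 and Klf9 lay below 0 too. In lung at 6 h Tsc22d3 was also lower in cells with Itga1 or Pmepa1, at -0.21 (95% interval -0.41 to -0.01) after thinning. Klf9 was higher in such cells of naive lung, at 0.73 (95% interval 0.29 to 1.14), whereas with all UMIs its interval included 0. The ratios between gates have no median of all genes beside them, so a shift shared by most genes cannot be told apart from them.

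Immediate early genes, which respond within minutes to stimulation and to tissue handling, moved with the same comparison. Their 12 genes summed to 2361, 2284 and 2023 CPM in lung and to 655, 618 and 557 CPM in blood. Of those tested in naive mice, 8 of 10 were higher in lung and 1 was lower, Egr1, at 23.8 against 48.1 CPM. Fos was at 80.3 CPM in naive lung and 12.8 CPM in naive blood, and Nr4a2 was at 432 and 59.7 CPM. This class of genes thus stood higher in the digested tissue in each library.

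Cells of like immediate early content were then set side by side, a grouping chosen after the values were seen. The match was not exact. In naive mice the mean of such UMIs was 0.70 in lung and 0.55 in blood among cells with 0 or 1. Among cells with 7 or more it was 11.4 and 14.3. Among thinned cells with 0 or 1 immediate early UMIs, which were 7.86% of lung and 56.1% of blood cells in naive mice, the log2 ratio of lung over blood was 0.92 (95% interval 0.61 to 1.22) for Tsc22d3. It was 0.82 (95% interval 0.54 to 1.09) at 6 h and 0.70 (95% interval 0.48 to 0.92) at 14 days. Per1 in these cells had 1.04 (95% interval 0.21 to 1.79), 1.47 (95% interval 0.71 to 2.20) and 1.87 (95% interval 1.16 to 2.61). Both genes thus had intervals above 0 in cells with few immediate early UMIs, where the lung cells had been digested as well. Klf9 in these cells had 0.33, 0.41 and 0.45, each with an interval that included 0. In cells at or below the median immediate early share of all cells, Tsc22d3 at 14 days was at 0.47, under the fold, whereas the naive and 6 h ratios of all 3 genes and those of Per1 and Klf9 at 14 days stayed past it. In naive mice these were 660 of 3676 lung cells and 3747 of 4367 blood cells. For all 3 genes in each library the ratio was smaller in these cells than in all cells. At 14 days Klf9 was at 0.74 against 1.19 and Per1 at 1.59 against 2.16. The part of tissue digestion in these ratios was not tested.

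**Figure D4:**
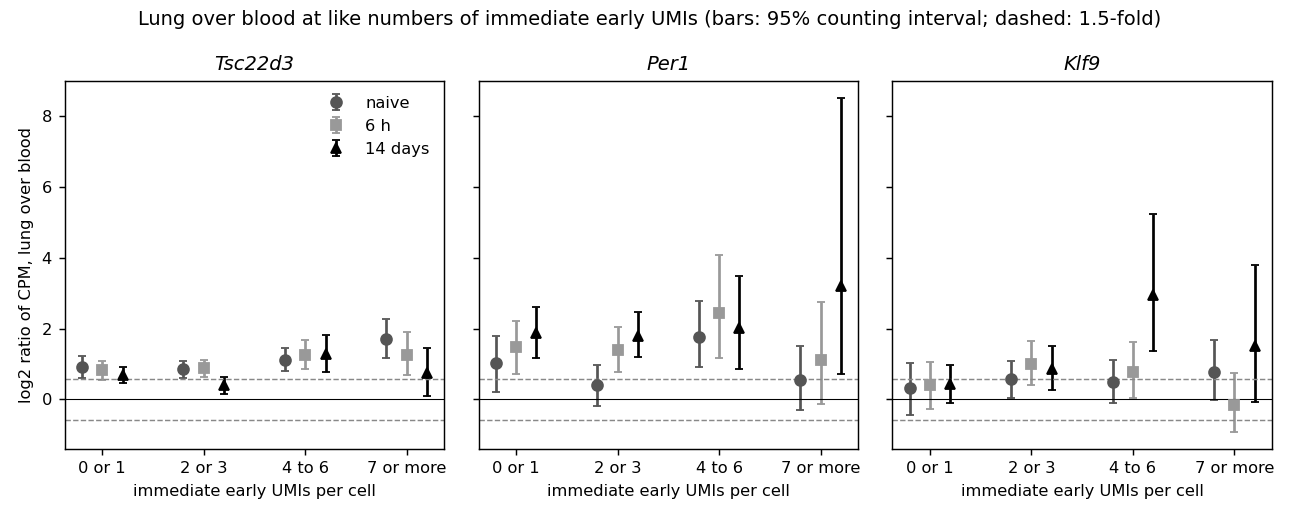
Log2 ratio of lung over blood (y axis) for Tsc22d3, Per1 and Klf9 in cells with 0 or 1, 2 or 3, 4 to 6, or 7 or more immediate early UMIs after thinning (x axis), with exact 95% counting intervals and 1.5-fold as dashed lines, for the naive, 6 h and 14-day libraries. Tsc22d3 lies above 0 in each set of cells, whereas Klf9 in cells with 0 or 1 such UMIs cannot be told from 0.

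Other genes known to respond to glucocorticoids also differed between tissues. Of 20 such genes, 14 could be tested in naive mice, of which 10 were higher in lung and 0 lower, with a median log2 ratio of 1.246 against -0.09 over all genes. At 6 h it was 9 of 14, with a median of 1.20, and at 14 days 9 of 14, with a median of 0.80. The largest were Dusp1, a phosphatase that inactivates MAP kinases, at 196 CPM in naive lung and 8.91 CPM in naive blood, and Irs2, an adaptor of insulin signaling, at 56.7 and 4.30 CPM. Cxcr4, a chemokine receptor, was at 172 and 14.5 CPM, and Cebpb, a transcription factor, at 127 and 12.0 CPM. Several of these genes, Dusp1 among them, are also induced by other stimuli, and the list does not separate these from the receptor. The list was chosen with earlier results of these data known, so its counts are not independent support.

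The machinery around the receptor differed less. Of 8 tested genes of the receptor complex and ligand supply, 0 passed the fold between tissues in naive and 6 h mice, with medians of 0.06 and 0.02. Hsd11b1, the enzyme that regenerates active glucocorticoid inside cells, was the exception in size and, between tissues, ran opposite to Tsc22d3. It was at 408, 358 and 331 CPM in lung and at 597, 512 and 538 CPM in blood, and at 14 days its log2 ratio of -0.70 (95% interval -0.74 to -0.66) passed the fold. Within each group, after thinning, Hsd11b1 was lower in cells with only Cd27 than with only Itgam, as Tsc22d3 was with all UMIs. Those log2 ratios ran from -0.62 (95% interval -0.81 to -0.43) in 14-day lung to -0.32 (95% interval -0.49 to -0.16) in 6 h lung. Of 10 coregulators of the receptor 1 was higher in naive lung, Nrip1 at 223 against 146 CPM, and 0 passed at 6 h or 14 days. Among clock genes 5 of 8 tested were higher in naive lung, led by Bhlhe40 at 255 against 77.4 CPM and Nfil3 at 66.2 against 24.1 CPM, both repressors of transcription, and 0 were lower. Hypoxia genes, relevant to Ddit4, were higher in naive lung for 3 of 6 tested, led by Vegfa at 72.0 against 5.60 CPM.

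The comparison of 6 h with naive asked how NK cells respond to newly arrived tumor cells, and it shares the naive library with the 14-day comparison. In lung 0 of the 6 genes passed the fold in either direction, where 0.487% of all genes were higher and 0.0874% lower. In blood 0 of the 6 passed, where 0.283% were higher and 0.234% lower. Smaller differences exceeded counting error. Nr3c1 had log2 ratios of -0.31 (95% interval -0.35 to -0.27) in lung and -0.39 (95% interval -0.44 to -0.34) in blood, against medians of -0.07 and -0.06 over all genes. Ddit4 had 0.28 (95% interval 0.14 to 0.41) in lung and 0.32 (95% interval 0.18 to 0.46) in blood. Per1 had -0.41 (95% interval -0.66 to -0.16) in blood, from the lowest counts of the 6 genes, and 0.01 in lung. Tsc22d3 had 0.19 (95% interval 0.09 to 0.28) and Fkbp5 0.12 (95% interval 0.04 to 0.19) in blood, whereas both had 0.02 in lung, and the lung intervals of these 3 genes included 0. Klf9 had -0.22 (95% interval -0.35 to -0.10) in lung and -0.15 in blood, where the interval included 0. Long genes were lower at 6 h as well, with medians from 0.08 for the shortest to -0.16 for the longest of 5 classes of genes by span in lung and from 0.08 to -0.15 in blood. Against the median of its own class, Nr3c1 was at -0.14 in lung and -0.24 in blood and Ddit4 at 0.20 and 0.24. Fkbp5 was then at 0.19 in lung and 0.27 in blood, and Tsc22d3 at 0.14 and 0.29. Nr3c1 was thus slightly lower and Ddit4 slightly higher in both tissues of the 6 h library, and by less when set against genes of like span. By that measure Ddit4 did not stand apart from Fkbp5 and Tsc22d3. Of the other glucocorticoid responsive genes 0 of 14 passed the fold in lung and 0 of 13 in blood, and the largest ratio in lung was that of Nfkbia, an inhibitor of NF-κB, at 0.51 (95% interval 0.47 to 0.56).

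At 14 days, by the ratio of CPM alone, the receptor transcript was the member that differed most from naive in lung, whereas in blood it was Ddit4. Nr3c1 in lung was at 0.457 of its naive level, a log2 ratio of -1.13 (95% interval -1.18 to -1.08), and in blood at 0.599, a log2 ratio of -0.74 (95% interval -0.80 to -0.68). It was found in 33.9% of thinned lung cells, against 58.7% in naive lung, and in 37.7% of blood cells, against 54.0%. Without thinning the shares were 58.6% against 77.3% in lung and 64.8% against 75.7% in blood. The lower level appeared in 4 of 4 gates of Cd27 and Itgam in both tissues, with log2 ratios of -1.30 to -1.02 in lung and -0.82 to -0.69 in blood.

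In lung 1 of the 6 genes was higher at 14 days and 1 lower, where 4.64% of all genes were higher and 10.9% lower. In blood 2 of the 6 were higher and 1 lower, where 0.949% of all genes were higher and 3.01% lower. Ddit4 was 1.62-fold higher in lung, a log2 ratio of 0.70 (95% interval 0.56 to 0.84), and 1.92-fold higher in blood, a log2 ratio of 0.94 (95% interval 0.81 to 1.08). Tsc22d3 was 1.60-fold higher in blood, a log2 ratio of 0.68 (95% interval 0.59 to 0.77), and its CPM differed little in lung, at 0.07 (95% interval 0.01 to 0.13). Per1 in lung was at 0.56 (95% interval 0.43 to 0.69), just under the fold, and in blood at -0.14 (95% interval -0.40 to 0.12). Fkbp5 was at 0.47 (95% interval 0.39 to 0.54) in lung and 0.34 (95% interval 0.26 to 0.41) in blood. Receptor and targets did not go the same way, since Nr3c1 was lower in both tissues while Ddit4 and Fkbp5 were higher in both.

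Ratios at 14 days also varied with the length of genes. Over 5 equal classes of genes by span, the median log2 ratio went from 0.06 for the shortest to -0.37 for the longest class in lung and from 0.11 to -0.38 in blood. Nr3c1 spans 108.9 kb and Fkbp5 118.4 kb, both in the longest class, and Ddit4 spans 2.17 kb, in the shortest. Relative to the median of their own class, Nr3c1 was at -0.76 in lung and at -0.36 in blood, the latter under the fold. Fkbp5 was at 0.83 in lung and 0.72 in blood, and Ddit4 at 0.64 and 0.83, all past the fold. Tsc22d3, which spans 61.1 kb, was at 0.36 in lung and 0.95 in blood, and Per1 in lung was then also past the fold. By this measure Fkbp5 in lung and Tsc22d3 in blood lay furthest from 0. Within the longest class, then, Nr3c1 and Fkbp5 lay on opposite sides of the median. The share of ribosomal counts, highest at 14 days, moved with this comparison, and with totals that left out ribosomal and mitochondrial genes Nr3c1 was at -0.95 in lung and -0.65 in blood. What lies behind the relation to span was not tested.

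**Figure D5:**
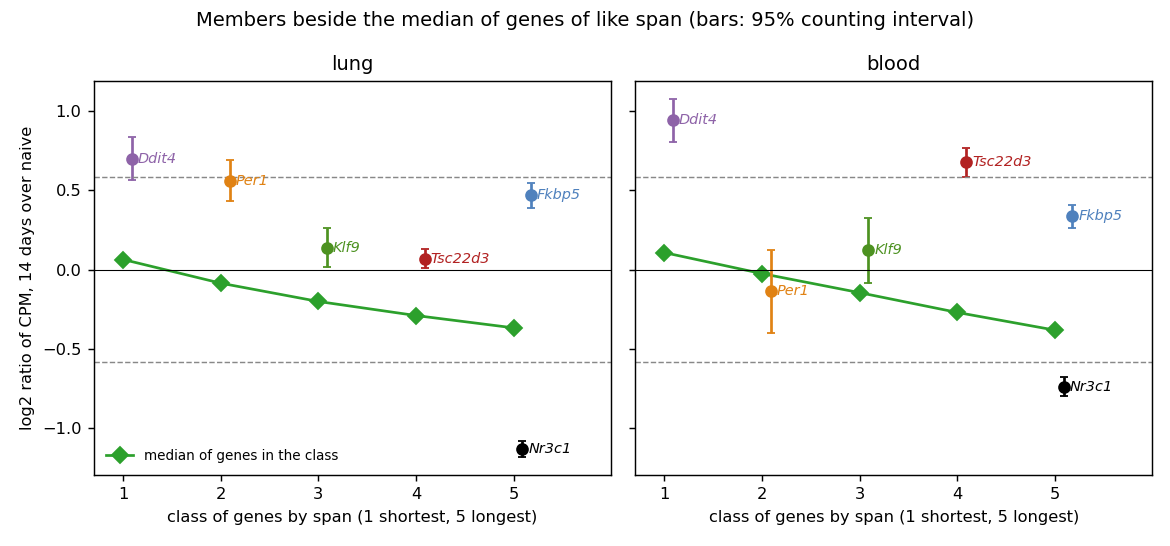
Log2 ratio of 14 days over naive (y axis) for the 6 genes placed in their class of all genes by span, from 1 (shortest) to 5 (longest), (x axis), with exact 95% counting intervals, beside the median of each class (green) and 1.5-fold (dashed), in lung and blood. The median went from 0.06 to -0.37 in lung and from 0.11 to -0.38 in blood, and Nr3c1 lies below and Fkbp5 above the median of the longest class.

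The other glucocorticoid responsive genes did not follow Ddit4 in lung at 14 days. There 0 of 14 tested were higher and 5 lower, with a median log2 ratio of -0.41 against -0.19 over all genes, of which 4.64% were higher and 10.9% lower. Sgk1, a kinase of ion transport and cell survival, was at 43.1 CPM against 129 CPM in naive lung. Pik3r1, a subunit of PI3 kinase, was at 453 against 951 CPM, and Zbtb16, the transcription factor PLZF, at 24.1 against 46.7 CPM. The others were Rhob and, named after its value was seen, Errfi1, at 33.0 against 69.7 CPM and at 46.1 against 83.8 CPM. In blood 2 of 12 tested were higher, Il7r at 25.7 against 13.2 CPM and Cxcr4 at 24.0 against 14.5 CPM. Il7r is also an ILC1 marker. Of the 12, 1 was lower, Bcl6 at 44.8 against 67.7 CPM. The median in blood was -0.006 against -0.154 over all genes, of which 0.949% were higher and 3.01% lower. Of 8 tested genes of the receptor complex 0 passed the fold in either tissue, and of 10 coregulators 1 was lower in lung, Nrip1, at 117 against 223 CPM. Of 7 tested hypoxia genes Pdk1 was higher in lung and Vegfa and P4ha1 were lower, and of 5 tested in blood 0 passed. Of the other genes of the mTORC1 pathway, on which Ddit4 acts, 0 of 8 were higher in lung and 1 was lower, Rptor, which encodes the Raptor subunit of mTORC1, at 96.0 against 179.9 CPM. In blood 0 of 9 passed. The single lower gene in lung among coregulators, and among mTORC1 genes, was near the 10.9% of all genes that were lower there.

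Summed T cell markers were 38.2 CPM in lung and 44.0 CPM in blood at 14 days, against 18.2 and 23.5 CPM in naive mice, and myeloid markers in blood were 94.2 against 27.5 CPM. Among the myeloid markers 2 were tested in blood and went opposite ways. Lyz2 was higher, at 89.3 against 0.600 CPM, and S100a9 lower, at 0 against 13.3 CPM. The 5 ILC1 markers summed to 70.3 against 35.7 CPM in lung and to 70.2 against 25.9 CPM in blood. Of those tested, 2 of 3 were higher in lung, Tmem176b at 14.8 against 2.73 CPM and Tmem176a at 10.9 against 2.22 CPM, and 4 of 4 in blood, led by Cxcr6 at 15.3 against 2.57 CPM. Without cells that held a UMI of an ILC1 marker, Nr3c1 was at -1.14 in lung and -0.74 in blood, Ddit4 at 0.62 and 0.95, and Tsc22d3 in blood at 0.71. Without cells that held a UMI of a T cell, B cell, myeloid, endothelial or epithelial marker, Nr3c1 was at -1.08 in lung and -0.84 in blood, Ddit4 at 0.66 and 0.97, and Tsc22d3 in blood at 0.67. That left 2188 lung and 1309 blood cells at 14 days. Hemoglobin genes summed to 89.0 CPM in lung at 14 days and to 0 to 0.362 CPM elsewhere, and without the cells that held them the ratio of Nr3c1 was again -1.13. The heat shock genes Hspa1a and Hspa1b stood apart in lung at 14 days, at 22.1 against 1.15 CPM and at 41.9 against 3.20 CPM in naive lung.

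Within a group, cells with a UMI of one member were compared with cells without it. Of 30 ratios of the other members by Tsc22d3 UMIs, 5 had intervals above 0 and 1 below 0, and of 30 by Nr3c1 UMIs 6 lay above 0 and 0 below. In the 14-day lung Nr3c1 was at 192 CPM in cells with Tsc22d3 UMIs and at 159 CPM in cells without, a log2 ratio of 0.28 (95% interval 0.14 to 0.41). In the same group Per1 was at 59.5 CPM in cells with Nr3c1 UMIs and at 46.5 CPM in cells without, a ratio of 0.36 (95% interval 0.10 to 0.61). At thinned depth most of these pairs could not be told from 0.

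Genes with the most similar profiles were sought over the 6 groups among 7422 genes with at least 10 CPM in every group, by the root mean square distance between centred log2 profiles. Since Per1 was at 9.15 CPM in 6 h blood, its own floor was just under that limit. Nr3c1 was nearest to S1pr1 at 0.077, a receptor for lymphocyte egress, then Runx1 at 0.085 and Cpeb2 at 0.097. Tsc22d3 was nearest to Btg1 at 0.16, Sh2d2a at 0.17 and Cysltr2 at 0.19, and Klf9 to Btg1 at 0.096, Klrb1b at 0.096 and Sqstm1 at 0.10. The anti-proliferative gene Btg1 was thus near both of these targets, which were themselves 0.19 apart. Per1 was nearest to Jun at 0.22, Zfp36l2 at 0.27 and Tgif1 at 0.27. Fkbp5 was nearest to Mpst, Dpcd and Cebpzos at 0.042 to 0.054, and Ddit4 to 2310009B15Rik, Gstp1 and Smim27 at 0.10. Fkbp5 and Ddit4 were 0.22 apart, whereas Fkbp5 and Per1 were 1.08 apart. Per1 lay 0.37 from Klf9 and 0.49 from Tsc22d3. By these distances Tsc22d3 and Klf9 lay together and Per1 less close to them, each with every lung group above every blood group. Fkbp5 and Ddit4 lay together, and Nr3c1 stood on its own. Fkbp5 and Ddit4 were highest at 14 days in both tissues, but so were Tsc22d3 and Klf9, and Fkbp5 was also higher in blood in each library. The top rank of Tsc22d3 in lung and that of Klf9 in blood did not exceed counting error. These distances describe 6 groups from 3 libraries.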

How the data were processed

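NK cells from lung and blood were measured by droplet 3' RNA sequencing in 3 libraries. The authors deposited UMI counts per gene and hashtag for all barcodes, without normalization, made with Cell Ranger (7.0.1 in the methods, 7.1.0 in the file headers) on GENCODE M23. Gene positions were taken from GENCODE M21 on GRCm38, which matched 25461 of 25906 genes.

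Barcodes with 800 to 5000 genes and at most 6% mitochondrial counts were kept, 21754 in all. Tissue was assigned where 1 hashtag held at least 90% of tag counts, taking the first tag that the methods list as lung and the second as blood, giving 21113 cells. Cells with both tags were left out, no doublet caller was run, and doublets within a tissue stayed in. Counts were summed per library and tissue and scaled to CPM. Poisson intervals, exact conditional intervals of ratios and exact binomial intervals of shares cover counting error only. For thinning to 3000 UMIs, 6 to 86 shallower cells per group were left out. The ratio function and the edgeR fit were tested on simulated data.

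Named are the 6 members, at most 4 genes of a list per comparison, those with the largest ratios, and the 3 nearest genes. Errfi1 was named beyond this rule after its values were seen to complete a count. Ncr1, as a check of the sort, and the summed marker lists are given besides. Members and lists were chosen with earlier results of these data known. Over the 3 libraries, lung and blood sums were compared with edgeR 4.0.16 (quasi-likelihood test, TMM, library as a block, Benjamini-Hochberg adjustment, genes with at least 10 CPM in some group). Alternatives changed the cell filter, hashtag rule, scaling, depth, free RNA, doublets, other cells, immediate early content, fold and CPM minimum. Python 3.11.15, numpy 2.4.6 and scipy 1.17.1 were used.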

Additional observations from a re-analysis of the deposited data

How the results depend on the processing

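No direction turned among called values. Of 672 log2 ratios recomputed under alternatives, 583 moved by less than counting error, and of 280 counts of called genes 261 stayed within 1.5 times. With at least 50 CPM required, 1 gene was higher in lung than in blood in each library, since Per1 and Klf9 were then not tested, and 0 were higher at 14 days in lung. With the lower of 2 alternative folds, 1 gene was lower in lung than in blood at 6 h, 2 were lower at 6 h in blood and 3 were higher at 14 days in lung. With the higher, a fold of 2, 0 were higher at 14 days in lung and 0 were higher and 0 lower at 14 days in blood. Per1 joined Ddit4, making 2 higher at 14 days in lung, with the stricter cell filter, the mean of the CPM of each cell, thinning, no cells of the highest 5% of UMIs or no cells with UMIs of another type. Per1 and Fkbp5 joined it, making 3, with totals without ribosomal and mitochondrial genes and when centred on the median of all genes or, an alternative chosen after seeing the data, of genes of like span. Under the last, 0 were lower at 14 days in blood. The share of all genes called was not computed under these alternatives, so these counts have no background beside them. All 72 shares of cells moved with depth. Free RNA was subtracted at the lower limit of a library, which takes an equal share in both tissues, and, chosen after seeing the data like the removal of cells with ILC1 markers, at the limit of each tissue, and no count of called genes moved. In edgeR's paired test of lung and blood, with the library as the block, 3 genes were higher and 0 lower, as without the block, and leaving out each library gave 3 to 4 higher and 0 to 1 lower. The highest counts came without the 14-day library, where Nr3c1 at 0.46 and Fkbp5 at -0.28 also passed. That fit left 1 residual degree of freedom and called 26.7% of all genes higher and 30% lower, so such calls were common in it. Without the naive library 4.18% of all genes were higher and 0.7% lower, and without the 6 h library 4.53% and 0.831%. Without the block 8.05% were higher and 3.22% lower. No paired analysis between times was possible because each time was 1 library. Depth limits Per1 most, with 187 to 364 UMIs in a blood group.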
